A study of Mus musculus with 8 samples.

Results

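The nuclear genes of respiratory complex I were followed through granulosa cells of newborn mice. A gene was included when its symbol in the deposited expression table began with Nduf, then a, b, c, s, v or af, then a digit. This rule found 44 genes among the 11783 of the table: 35 accessory and core subunits, 8 assembly factors named Ndufaf, and Ndufa4. The table comes from RNA-seq of granulosa cells, the somatic cells that surround the oocyte, dissociated from C57BL/6 mouse ovaries, with 4 libraries of postnatal day 1 (PND1) and 4 of postnatal day 4 (PND4). No genotype, allele or agent is given in the labels for either age, and the comparison asks how these cells differ while the earliest follicles begin to grow. Values are FPKM, fragments scaled by transcript length and library size.

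Complex I takes electrons from NADH, passes them along a chain of iron-sulfur clusters to ubiquinone, and moves protons across the inner mitochondrial membrane. It has an arm in the matrix, called peripheral here, that carries the redox centres, and an arm in the membrane that carries the proton channels. The membrane arm's channel subunits are encoded by mitochondrial DNA, the redox core and all accessory subunits by the nucleus, and assembly factors join intermediates but leave the finished enzyme. In the ovary, mitochondrial respiration has been studied mostly in oocytes, which take up pyruvate supplied by the cells around them.

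Of the 49 symbols in GENCODE M21 that meet the rule, 44 were in the table and 5 were not: Ndufa4l2, Ndufb1-ps, Ndufa11b, Ndufb4c and Ndufs6b. All 44 genes are annotated as protein coding and lie on 17 chromosomes. All 44 passed the filter on low values (at least 1 FPKM in at least 4 libraries), which 10756 genes of the whole table passed.

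The libraries differed in ways that touch low genes. Between 222 and 1234 genes a library were listed at exactly 0, with the most in PND1 replicate 1 (1234) and PND4 replicate 1 (1097). An exact 0 can be a failed estimate, and read depth is unknown. The labels do not tie libraries to animals or litters, so every p-value here reflects only how far these libraries spread, which may be technical. All 12 granulosa markers examined were listed, with a summed level of 906 to 1370 FPKM at PND1 and 927 to 1315 FPKM at PND4. Among them, the ovarian transcription factor gene Foxl2 ranged from 10.5 to 26.2 FPKM and the keratin gene Krt18 from 378 to 552 FPKM. Most of the sum came from the keratin genes Krt18, Krt8 and Krt19, with means of 493, 373 and 123 FPKM. Of the 12 granulosa markers, 1 had an unadjusted p under 0.05 (5.9% of all tested genes). This was Wnt4 (limma unadjusted p = 0.0143), lower in every PND4 library than in any PND1 library (as 1.08% of all tested genes). Oocyte markers (12 of 13 listed) summed to 14.7 to 90.3 FPKM at PND1 and 20.9 to 226 FPKM at PND4, and stroma markers (9 of 9) to 183 to 200.1 and 196 to 256 FPKM. Of the 9 stroma markers, 3 (Dcn, Tcf21 and Col1a1) were higher at PND4 with an unadjusted p under 0.05 (limma, background 4.06%). Of 11 oocyte markers tested, Zp3 was higher at that threshold, and Dazl and Figla were lower (background 1.84%). From both lists, 0 passed adjustment. Dazl, Figla, Nobox, Sohlh1 and Ddx4 of the oocyte list were at 0 in PND4 replicate 1, where Zp3 stood at 12.7 FPKM. Erythroid markers (3 of 6 listed) summed to 17.1 to 48.9 FPKM at PND1 and 0.268 to 11.4 FPKM at PND4. Immune markers (3 of 5) summed to 8.34 to 23.9 and 2.92 to 57.1 FPKM, and 0 of 5 endothelial markers were listed. In such bulk samples, fewer cells of a type and less RNA per cell cannot be told apart, and the part of these other cells in the values below was not tested.

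No nuclear complex I gene passed the test between the ages. Of 44 genes, 0 had an adjusted p under 0.05 (limma on log2(FPKM + 1), all 8 libraries), where 0.0093% of all tested genes did. The smallest adjusted p among them was 0.637, for Ndufa12. An unadjusted p under 0.05 was had by 4 of 44 genes, against 5.9% of all tested genes. These were Ndufa12, Ndufa8 and Ndufb3, with higher values at PND4 (3 genes, background 4.06%), and Ndufv3, with lower values (1 gene, background 1.84%). Libraries of the ages did not overlap for 1 gene, Ndufa12, which was higher at PND4 (background 3.16%), and for 0 genes that were lower (background 1.08%). The difference was above 0 for 30 of 44 genes, against 60.3% of all tested genes. The median log2 difference of the 44 genes was 0.055, beside 0.078 for all tested genes. That sign is not firm, as with median-of-ratios scaling it was -0.022 beside 0.0085 for all genes, and with upper-quartile scaling -0.026 beside 0.0048. With these scalings, 21 and 20 of the 44 genes were above 0, against 51.2% and 50.6% of all tested genes.

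**Figure D1:**
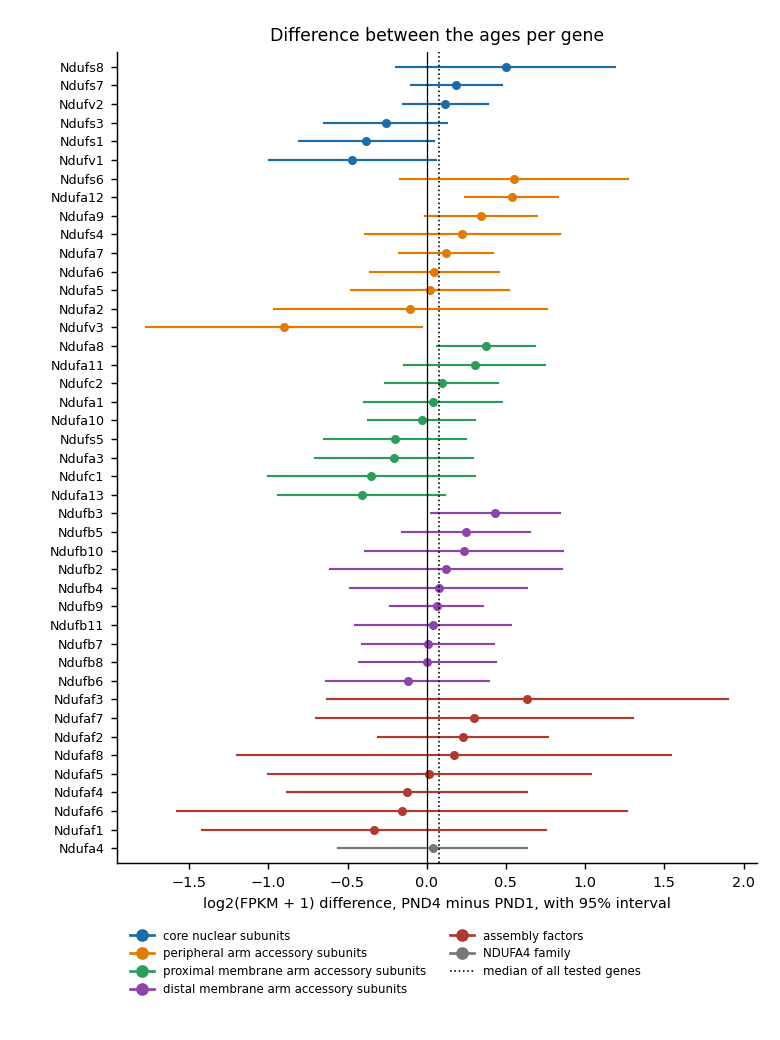
Difference in log2(FPKM + 1) between PND4 and PND1 for each gene drawn (points) with its 95% interval (lines), coloured by place in the complex; 1 of the 44 genes is not drawn. The dotted line is the median of all tested genes, 0.078, and most intervals cover it and 0.

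In the authors' deposited table, 3 of the 44 genes (Ndufa12, Ndufb3 and Ndufa8) had a p under 0.05, against 6.55% of all genes there. A q under 0.05 was had by 0 of the 44, and by 0 of all 11783 genes (smallest q of all 0.107). The smallest q of the 44 in the authors' deposited table was 0.440, again for Ndufa12, whose ratio of PND1 over PND4 there was 0.705.

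Ndufa12 encodes an accessory subunit of the peripheral arm that is added late in assembly. It lies on chromosome 10 from 94198720 to 94221443 on the plus strand (GRCm38) and has 4 annotated transcripts. Its level was 21.8, 26.1, 26.8 and 24.0 FPKM in PND1 replicates 1 to 4 and 33.9, 37.1, 35.8 and 37.8 FPKM in PND4 replicates 1 to 4. Every PND4 library was above every PND1 library. The means were 24.7 ± 2.24 and 36.1 ± 1.72 FPKM (SD, n = 4), a ratio of 1.47, and the log2 difference was 0.54 (SE 0.13, 95% interval 0.24 to 0.83, limma unadjusted p = 0.00207, adjusted p = 0.637). Its unadjusted p was under 0.05 in 19 of 19 alternative analyses, with log2 differences of 0.46 to 0.58 and adjusted p of 0.26 to 0.889. Ndufa12 therefore differed by more than the spread of its own libraries but did not pass adjustment over all genes.

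The assembly factor gene Ndufaf2 encodes a paralog of NDUFA12 that holds its place in a late intermediate. Ndufaf2 stood at 11.9, 12.6, 11.5 and 13.8 FPKM at PND1 and at 8.84, 16.2, 15.6 and 21.0 FPKM at PND4, so that PND4 replicate 1 was the lowest library of all and the other PND4 libraries were above all PND1 libraries. Its log2 difference was 0.23 (95% interval -0.31 to 0.77, adjusted p = 0.879), and 0.46 (limma unadjusted p = 0.0327) without PND4 replicate 1.

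Ndufa8 and Ndufb3 also had higher values at PND4, with overlap. Ndufa8 encodes a membrane arm subunit that faces the intermembrane space, and spans 36036326 to 36049406 of chromosome 2 (minus strand). It stood at 53.2, 56.3, 57.0 and 66.9 FPKM at PND1 and at 94.5, 65.4, 70.8 and 74.4 FPKM at PND4. PND4 replicate 1 was the highest library, and PND1 replicate 4 was above PND4 replicate 2. The log2 difference was 0.37 (95% interval 0.065 to 0.68, limma unadjusted p = 0.0220, adjusted p = 0.805), and 0.22 (unadjusted p = 0.104) without replicate 1 of both ages. The unadjusted p of Ndufa8 was under 0.05 in 14 of 19 alternatives, and was 0.098 with median-of-ratios scaling, 0.0763 with upper-quartile scaling and 0.0141 to 0.0600 with 1 library left out (limma). Ndufb3 encodes a small subunit of the distal membrane arm and lies on chromosome 1 from 58586384 to 58595964 on the plus strand. Its PND1 libraries were at 17.8, 12.6, 13.6 and 12.9 FPKM and its PND4 libraries at 21.5, 15.5, 20.5 and 20.7 FPKM. Only PND1 replicate 1 and PND4 replicate 2 overlapped. The log2 difference of Ndufb3 was 0.43 (95% interval 0.026 to 0.84, limma unadjusted p = 0.0390, adjusted p = 0.805). Its unadjusted p was under 0.05 in 11 of 19 alternatives, and was 0.111 with median-of-ratios scaling, 0.0845 with upper-quartile scaling and 0.0131 to 0.0906 with 1 library left out.

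Ndufv3 had the lowest difference of the 44 genes. It encodes a small accessory subunit next to the NADH-binding module and lies on chromosome 17 from 31520115 to 31531331 on the plus strand. Its level was 7.74, 7.87, 10.3 and 10.8 FPKM at PND1 and 10.5, 4.88, 1.69 and 3.69 FPKM at PND4. PND4 replicate 1 sat among the PND1 libraries, and the other PND4 libraries were below all of them. The log2 difference was -0.90 (SE 0.40, 95% interval -1.77 to -0.033, limma unadjusted p = 0.0433, adjusted p = 0.805), -1.26 without PND4 replicate 1, and -0.57 (unadjusted p = 0.126) without PND4 replicate 3. An unadjusted p under 0.05 was kept in 10 of 19 alternatives. PND4 replicate 1 was also the library in which, among other subunits, Ndufa8, Ndufa9 and Ndufb3 were highest and Ndufv1 lowest.

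**Figure D2:**
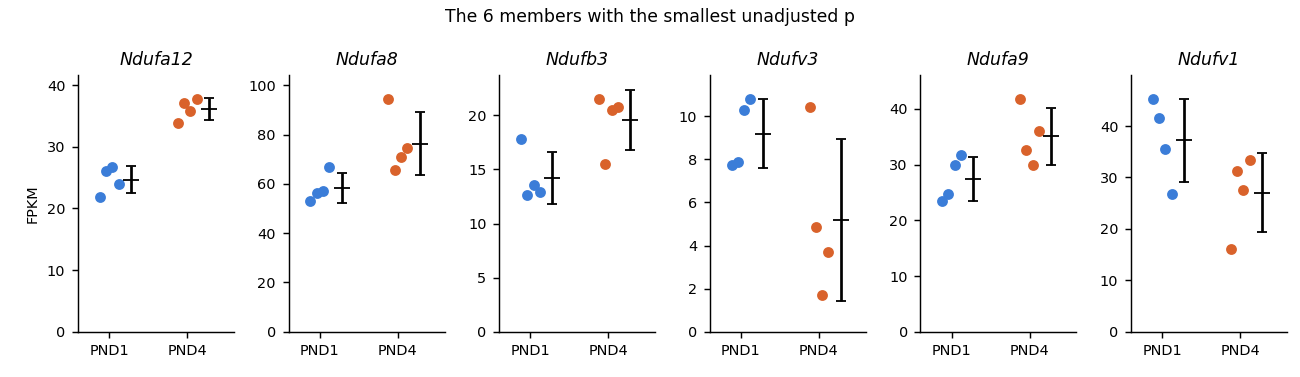
FPKM of the 6 genes with the smallest unadjusted p, one panel each, with every library as a point, and the mean and SD of 4 libraries as the bar beside them. Only Ndufa12 has ages that do not overlap, and PND4 replicate 1 is the leftmost PND4 point in each panel.

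Differences of the nuclear core subunits had both signs, in shares near those of all tested genes. These are the 7 subunits that hold the flavin and the iron-sulfur clusters, or line the quinone site. A difference above 0 was had by 4 of them (57.1%, against 60.3% of all tested genes) and one below 0 by 3, with a median of 0.12. Ndufv1 encodes the subunit that binds NADH and the flavin, and spans 4007384 to 4012806 of chromosome 19 (minus strand). It stood at 45.3, 41.5, 35.5 and 26.7 FPKM at PND1 and at 16.1, 31.2, 27.6 and 33.3 FPKM at PND4 (log2 difference -0.47, 95% interval -0.997 to 0.056, limma unadjusted p = 0.0750). The ages overlapped, and without replicate 1 of both ages the difference was -0.15. Ndufs1, for the large iron-sulfur subunit of the same module, stood at 17.5, 23.3, 16.5 and 16.6 FPKM at PND1 and at 11.9, 17.6, 12.3 and 14.2 FPKM at PND4 (log2 difference -0.38, unadjusted p = 0.0751). PND4 replicate 2 reached into the PND1 range and the other PND4 libraries lay below it.

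Their partner Ndufv2, for the third subunit of the NADH module, stood at 47.3, 47.2, 44.0 and 51.5 FPKM at PND1 and at 47.9, 58.4, 48.4 and 52.0 FPKM at PND4 (log2 difference 0.12, 95% interval -0.15 to 0.38). Its ages overlapped through PND1 replicate 4. Each of these subunits is present once in the enzyme, and the level of Ndufv2 was closer between ages than those of Ndufv1 and Ndufs1. The difference between these genes was not tested.

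In the quinone module, Ndufs8 encodes a subunit with iron-sulfur clusters and stood at 15.2, 40.1, 35.2 and 51.0 FPKM at PND1 and at 62.4, 44.5, 44.3 and 37.1 FPKM at PND4. PND1 replicate 1 was the lowest and PND4 replicate 1 the highest library. Its log2 difference of 0.50 (95% interval -0.19 to 1.19) rested on that pair, since it was 0.0072 without replicate 1 of both ages. Ndufs7, which holds the last cluster before ubiquinone, stood at 42.7, 43.2, 43.7 and 52.7 FPKM in the PND1 libraries and at 58.7, 48.9, 54.0 and 46.6 FPKM in the PND4 libraries (log2 difference 0.19, 95% interval -0.10 to 0.48). In Ndufs7, PND1 replicate 4 alone overlapped the PND4 libraries. Ndufs3 stood at 21.6, 24.1, 22.2 and 19.1 FPKM in the PND1 libraries and at 14.0, 18.8, 17.6 and 22.3 FPKM in the PND4 libraries (log2 difference -0.26, 95% interval -0.65 to 0.13), with overlapping ages.

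Among the accessory subunits of the peripheral arm, 7 of 9 differences were above 0 (60.3% of all tested genes), 2 had an unadjusted p under 0.05 (Ndufa12 and Ndufv3, against 5.9% of all tested genes), and the median was 0.12. With median-of-ratios or upper-quartile scaling 5 of the 9 were above 0. Ndufa9, whose product lies at the junction with the membrane arm and binds a nucleotide, stood at 23.5, 24.8, 29.9 and 31.6 FPKM at PND1 and at 41.8, 32.6, 30.0 and 36.0 FPKM at PND4 (log2 difference 0.34, 95% interval -0.010 to 0.70, limma unadjusted p = 0.0560). The ages of Ndufa9 overlapped through PND1 replicate 4 and PND4 replicate 3. The other 6, Ndufs4, Ndufs6, Ndufa2, Ndufa5, Ndufa6 and Ndufa7, had log2 differences between -0.10 (Ndufa2) and 0.55 (Ndufs6). Ndufs6, for a zinc-binding subunit, had 7.57 FPKM in PND1 replicate 2 and 19.9 to 34.5 FPKM in all other libraries. Ndufa2 ranged within PND4 alone from 10.1 FPKM in replicate 2 to 43.4 FPKM in replicate 3.

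The accessory subunits around the proximal membrane arm had 4 of 9 differences above 0 (60.3% of all tested genes) and a median of -0.033, and with either of those scalings 3 of 9. Ndufa8 was described above. Ndufc2, which sits beside the mitochondrially encoded ND2, had the highest mean of the 44 genes, 74.5 FPKM, with 59.2, 78.4, 73.4 and 75.5 FPKM at PND1 and 63.9, 74.8, 68.3 and 102.7 FPKM at PND4. Its log2 difference was 0.095 (95% interval -0.26 to 0.45). PND4 replicate 4 was its highest library, and the other libraries of both ages were interleaved. The rest of the proximal subunits lay between -0.41 (Ndufa13) and 0.30 (Ndufa11), and none of them had an unadjusted p under 0.05. Ndufa13, known also as a cell-death regulator, stood at 27.5 to 32.4 FPKM at PND1 and at 12.8, 29.0, 21.1 and 29.7 FPKM at PND4, where replicate 1 was lowest.

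In the distal membrane arm, 9 of 10 differences were above 0 (60.3% of all tested genes) and the median was 0.069. That count rested on small values, as 5 of 10 were above 0 with median-of-ratios scaling (median -0.0068) and 4 of 10 with upper-quartile scaling (median -0.012). Ndufb9 was the most abundant of them, at 65.2, 60.7, 58.1 and 76.4 FPKM at PND1 and 68.1, 78.7, 58.7 and 66.6 FPKM at PND4, with ages that overlapped throughout (log2 difference 0.063, 95% interval -0.23 to 0.36). Apart from Ndufb3, the log2 differences of this arm ran from -0.12 (Ndufb6) to 0.25 (Ndufb5).

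Ndufb2 was the lowest of all 44 genes, with a mean of 3.48 FPKM. It encodes a small distal subunit and lies on chromosome 6 from 39592574 to 39603382 on the plus strand. It stood at 3.33, 2.43, 5.42 and 2.25 FPKM at PND1 and at 2.91, 3.26, 4.52 and 3.73 FPKM at PND4. The antisense gene Gm16272 begins inside its first exon, and was the 1 gene of the table past the adjusted test. Exon 1 of Gm16272 runs on the minus strand from 39592629 to 39592784, and all 156 of its bases lie in annotated exons of Ndufb2. The 84 of them that are coding in Ndufb2 (chr6:39592629-39592712, GRCm38, plus strand) are shown because a read from here belongs to either gene if strand is not used, and the sources used here do not say whether strand was used.
Ndufb2 coding bases within Gm16272 exon 1: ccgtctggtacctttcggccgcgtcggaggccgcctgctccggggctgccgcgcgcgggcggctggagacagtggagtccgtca
Gm16272 stood at 29.2, 14.2, 22.6 and 12.8 FPKM in the PND1 libraries, above Ndufb2 in each, and was listed at 0 in every PND4 library (limma adjusted p = 0.000654). It met the filter on low values only through its PND1 libraries. Ndufb2 itself had overlapping ages (log2 difference 0.12, 95% interval -0.61 to 0.85). Ndufb2 has 6 annotated transcripts and 5628 merged exon bases, the second highest number among the 44 genes, and the sources used here do not say which length the authors gave such a gene.

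Ndufb2 is 1 of 15 genes in the set that share exonic bases with a neighbour on the opposite strand, and for 11 of the 15 the neighbour is itself in the table. The longest such overlap with a listed neighbour was 616 bases between Ndufb5 and the mitochondrial ribosomal gene Mrpl47. For Ndufa12, Ndufa8, Ndufb3 and Ndufv3 no overlap of this kind is annotated.

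**Figure D3:**
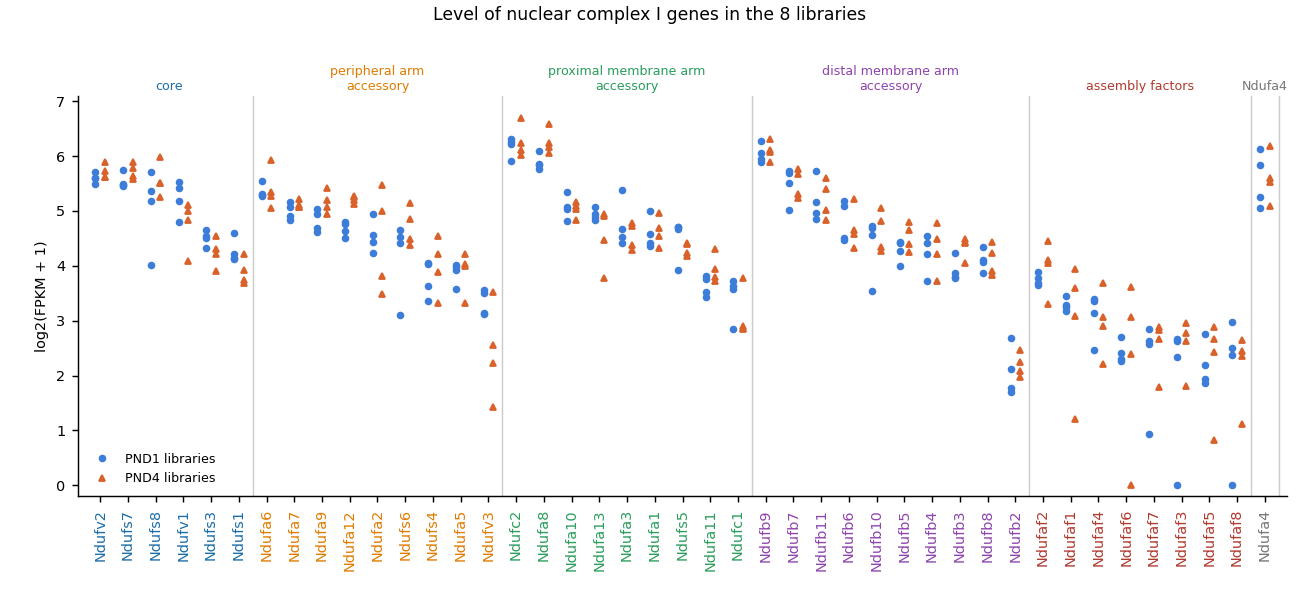
Level of the same genes as log2(FPKM + 1) in the 4 PND1 libraries (circles) and the 4 PND4 libraries (triangles), grouped by place in the complex and ordered by mean. Subunits apart from Ndufb2 lie mostly above the assembly factors, whose libraries scatter more widely and include 3 values of 0.

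By their medians, the assembly factors were lower and more variable than the subunits. Mean levels over the 8 libraries ran from 3.85 to 13.95 FPKM for the 8 factors (median 4.89) and from 3.48 to 74.5 FPKM for the 35 subunits (median 24.7). The median SD within an age was 0.79 on the log2(FPKM + 1) scale for factors, 0.28 for subunits and 0.40 for all tested genes. A gene's difference between ages was accordingly known to ±1.05 for the median factor and to ±0.43 for the median subunit (distance from the estimate to the end of its 95% interval, log2). Across all 44 genes, a lower mean went with a higher coefficient of variation over the libraries (Spearman rho -0.652, n = 44 genes that share these 8 libraries). At least 1 library was listed at 0 for 3 of the 8 factors and for 0 of the 35 subunits, against 8.59% of all tested genes.

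Of the 8 factors, 5 had differences above 0 (62.5%, against 60.3% of all tested genes), and 4 with either of the other scalings. An unadjusted p under 0.05 was had by 0 of the 8 (limma, 5.9% of all tested genes). Ndufaf1, part of the complex that builds the proximal membrane arm, stood at 7.99, 9.98, 8.53 and 8.75 FPKM at PND1 and at 1.32, 7.51, 14.4 and 11.1 FPKM at PND4. PND4 replicate 1 was far below the rest, and the log2 difference of -0.33 was 0.25 without it. Ndufaf6, which acts early in assembly, stood at 3.95, 4.34, 3.82 and 5.53 FPKM and then at 0, 4.24, 7.43 and 11.2 FPKM. Its difference of -0.16 was 0.60 without PND4 replicate 1. Ndufaf5, for an enzyme that hydroxylates NDUFS7, stood at 2.63, 3.56, 2.82 and 5.78 FPKM in the PND1 libraries and at 0.777, 5.32, 6.36 and 4.41 FPKM in the PND4 libraries, and its lowest library was again PND4 replicate 1.

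PND4 replicate 1 was thus the lowest library of all 8 for Ndufaf1, Ndufaf2, Ndufaf5 and Ndufaf6. The summed level of the 8 factors was 28.6 FPKM in it and 62.6, 63.7 and 66.0 FPKM in the other PND4 libraries, beside 37.3, 49.0, 52.8 and 57.3 FPKM at PND1. The sum of the subunits showed no such fall, with 1080 FPKM in PND4 replicate 1 and 1054 to 1097 FPKM in the other PND4 libraries. Many single subunits did differ there, in both directions. Ndufv1, Ndufs1, Ndufs3, Ndufa5, Ndufa13, Ndufb4, Ndufb6 and Ndufb8 were at their lowest of all libraries. Ndufa6, Ndufa8, Ndufa9, Ndufa11, Ndufb3, Ndufb7, Ndufs4, Ndufs7 and Ndufs8 were at their highest. In log2(FPKM + 1), the median deviation from each gene's mean in PND4 replicate 1 was -0.58 for factors and -0.0068 for subunits. For all tested genes it was -0.11 there and 0.11 to 0.13 in the other PND4 libraries. The share of all genes lowest in that library was not counted. PND4 replicate 1 was next to highest in genes listed at 0, and whether that count moves the factors was not tested.

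The remaining factors had their lowest library elsewhere, but within PND4 replicate 1 was also the lowest for Ndufaf3 and Ndufaf7. Ndufaf8, which works with NDUFAF5, was at 0 in PND1 replicate 1, at 4.21, 6.91 and 4.70 FPKM in the other PND1 libraries, and at 5.28, 4.45, 1.16 and 4.12 FPKM at PND4. Ndufaf7, for a methyltransferase, was lowest in PND1 replicate 1, with 0.904, 4.94, 6.20 and 5.22 FPKM at PND1 and 2.48, 6.14, 6.41 and 5.35 FPKM at PND4. Ndufaf3 and Ndufaf4 encode partners in the quinone module. Ndufaf3 stood at 5.38, 0, 5.22 and 4.03 FPKM in the PND1 libraries and at 2.52, 6.77, 5.89 and 5.16 FPKM in the PND4 libraries, so its log2 difference of 0.64 fell to -0.0014 without PND1 replicate 2. Ndufaf4 stood at 4.52, 9.31, 7.78 and 9.53 FPKM in the PND1 libraries and at 7.36, 11.9, 6.47 and 3.66 FPKM in the PND4 libraries (log2 difference -0.12, 95% interval -0.88 to 0.63).

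**Figure D4:**
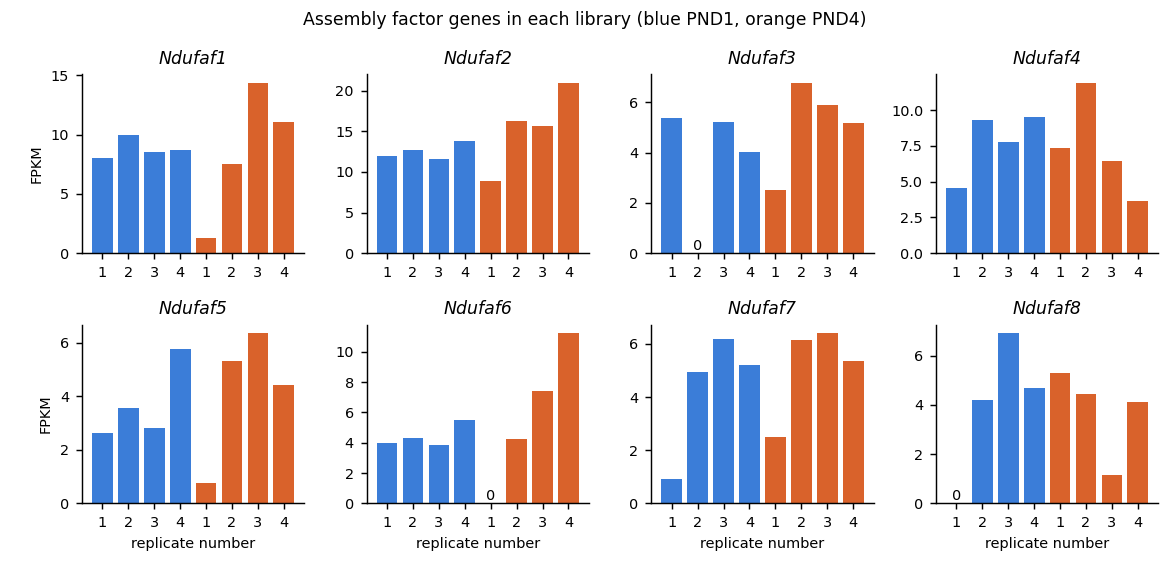
FPKM of the 8 assembly factor genes in each library, replicates 1 to 4 of PND1 in blue and of PND4 in orange, with 0 written where a gene was listed at 0. PND4 replicate 1 is the lowest bar for Ndufaf1, Ndufaf2, Ndufaf5 and Ndufaf6.

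Ndufa4, which the rule takes in by name, encodes a protein now placed in complex IV. It stood at 69.3, 55.8, 32.2 and 37.2 FPKM at PND1 and at 72.1, 45.4, 33.2 and 47.6 FPKM at PND4 (log2 difference 0.038, 95% interval -0.56 to 0.63). Its spread lay within the ages, over about the same range in each.

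Promoters of the set hold motifs known from nuclear respiratory genes. RefSeq windows of 250 bases before to 50 after the start (GRCm38.p6) were at hand for 39 of the 44 genes and searched on both strands. The core of the NRF1 motif, GCGC on both sides of any 2 bases, was in 10 of the 39 windows (25.6%), against 7.0% of 27025 genes, and its full palindrome, with AT between the same flanks, each match of which is also a core match, in 3 (7.69%, against 1.07%). The motif CCGGAA of ETS factors such as GABPA was in 12 (30.8%, against 16.7%), AAGATGGC of YY1 in 8 (20.5%, against 3.19%), and TGACCTTGA of estrogen-related receptors in 0 (0.466% of all genes). At least 1 of the NRF1 core, ETS and YY1 motifs was in 26 of the 39 windows. These are matches of letters, not measured binding. The 27025 genes are all those with a window, whether or not they were listed in these libraries. The shares therefore do not set these windows against those of other genes expressed here.

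The median log2 difference was 0.061 for genes with the NRF1 core and 0.095 without it, -0.012 with the ETS motif and 0.12 without it, and 0.18 with the YY1 motif and 0.047 without it. The 12 genes with the ETS motif ran from -0.90 (Ndufv3) to 0.50 (Ndufs8). Ndufv3 and Ndufv1, the pair with the lowest differences of the set, are among these 12, and Ndufaf4 holds the NRF1 palindrome. The stretches of Ndufv3, Ndufv1 and Ndufaf4 outside annotated exons follow, 5′ to 3′ on each gene's strand. The motif is in capitals, to show where it stands. Ndufv3 is at chr17:31519981-31520114 (plus strand), Ndufv1 at chr19:4012807-4013005 (minus strand, motif on the opposite strand) and Ndufaf4 at chr4:24897833-24898082 (plus strand).
Ndufv3: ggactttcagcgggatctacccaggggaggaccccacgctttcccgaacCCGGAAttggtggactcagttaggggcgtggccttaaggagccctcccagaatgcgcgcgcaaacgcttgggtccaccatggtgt
Ndufv1: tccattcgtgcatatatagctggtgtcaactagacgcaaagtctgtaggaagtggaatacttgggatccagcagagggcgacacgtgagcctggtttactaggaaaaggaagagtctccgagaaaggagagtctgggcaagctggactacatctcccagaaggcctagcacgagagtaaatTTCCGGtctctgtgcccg
Ndufaf4: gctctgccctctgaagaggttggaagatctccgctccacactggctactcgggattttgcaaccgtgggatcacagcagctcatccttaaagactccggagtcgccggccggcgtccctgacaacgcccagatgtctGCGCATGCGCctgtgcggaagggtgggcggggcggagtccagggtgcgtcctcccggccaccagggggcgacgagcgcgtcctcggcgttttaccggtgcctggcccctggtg

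The 35 nuclear subunits summed to 998, 1020, 950.4 and 1066 FPKM in PND1 replicates 1 to 4 and to 1080, 1074, 1054 and 1097 FPKM in the PND4 libraries. The 7 mitochondrially encoded subunits, which form the proton channels, summed to 52448, 54413, 44429 and 51365 FPKM at PND1 and to 56678, 37769, 34972 and 36636 FPKM at PND4. The mitochondrial sum was 46.7 to 53.4 times the nuclear sum at PND1, 52.5 times in PND4 replicate 1, and 33.2 to 35.2 times in the other PND4 libraries. PND4 replicate 1 thus lay in the PND1 range and its age mates below it. Of the 7 mitochondrial genes, 1 had a difference above 0 (60.3% of all tested genes) and 6 had differences below 0, with a median of -0.46. An unadjusted p under 0.05 was had by 4 (mt-Nd4, mt-Nd4l, mt-Nd5 and mt-Nd6), all lower at PND4 (limma, background 1.84%), and 0 passed adjustment. The listed values of a library summed to between 443333 and 505035 FPKM, so they were not shares of a fixed total. With equal totals over the genes not mitochondrially encoded, the median of the 44 nuclear genes was 0.040, beside 0.055 as listed. What the mitochondrial share does to the nuclear values was not tested.

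**Figure D5:**
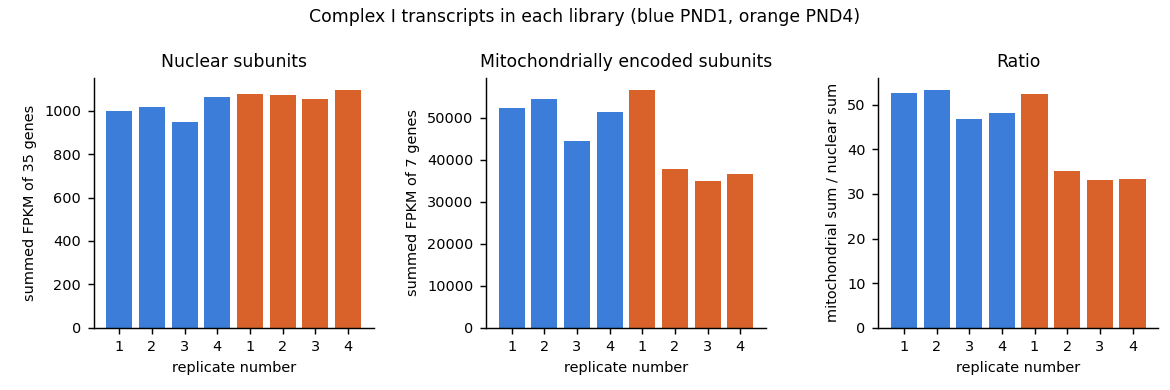
Summed FPKM of the 35 nuclear subunits (left), of the 7 mitochondrially encoded subunits (middle) and their ratio (right) in each library, replicates 1 to 4 of PND1 in blue and of PND4 in orange. The ratio is 46.7 or more in all PND1 libraries and in PND4 replicate 1, and 35.2 or less in PND4 replicates 2 to 4.

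Nuclear subunits of complexes II to V had 32 of 40 differences above 0 (60.3% of all tested genes) and a median of 0.12. With median-of-ratios or upper-quartile scaling 23 of the 40 were above 0 (51.2% and 50.6% of all tested genes). An unadjusted p under 0.05 was had by 2 of the 40, Uqcrfs1 of complex III and Atp5k of complex V (limma, 5.9% of all tested genes). Both were higher at PND4 (background 4.06%), and 0 of the 40 passed adjustment. The complex I genes stood lower in level, with a median of the gene means of 22.4 FPKM against 63.2 FPKM for those 40. Complex I genes whose symbols the rule does not meet included Ndufab1, the acyl carrier protein in both membrane and peripheral arms, at 6.57 ± 0.877 FPKM at PND1 and 7.26 ± 1.11 FPKM at PND4 (SD, n = 4). Of 10 such genes measured, 8 had differences above 0 (60.3% of all tested genes) and 7 with either scaling. An unadjusted p under 0.05 was had by 0 of the 10 (limma, 5.9% of all tested genes). The most abundant were the assembly factor genes Tmem126a, at 35.4 ± 8.13 and 35.9 ± 5.75 FPKM, and Dmac1, at 19.5 ± 9.19 and 24.5 ± 4.81 FPKM.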

How the data were processed

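RNA was taken from granulosa cells of 4 PND1 and 4 PND4 libraries. The submitters' processing notes name Trim Galore, HISAT2 and the build GRCm38. The authors deposited FPKM values, per the file headers. The sources used here name no quantifier, annotation or filter for them. A second table the authors deposited holds, for each gene, a ratio of PND1 over PND4 (a fold) with its log2, and the p-value and q-value of an unnamed test. Replicate numbers and groups come from the labels.

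Values were used as log2(FPKM + 1), which understates changes of low genes. A gene was tested if 4 or more libraries reached 1 FPKM (10756 of 11783). The comparison used limma 3.58.1 under R 4.3.3 (trended prior variance, no block), as PND4 minus PND1, with Benjamini-Hochberg adjustment over all kept genes at 0.05. The steps were tested on simulated data. A search for the worth of 1 read, over 2467 genes with a single transcript, left only 24.9% to 27.2% of low values near whole numbers (tolerance 0.1; chance gives 20%), so depth stayed unknown.

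The members and lists were chosen with earlier results of these data known. 1 gene counted among the 44 is not reported here by name or value. Values in every library are given for core subunits, assembly factors, Ndufa4, Ndufb2, the 4 highest and 3 lowest means, the 6 smallest p, and genes whose ages do not overlap. Ndufs6, Ndufa2, Ndufa13 and Ndufa11 were named after their values were seen, as were the promoters printed. So were the other subunits outside that choice that are listed at their lowest or highest in PND4 replicate 1. Alternatives covered scaling, filter, pseudocount, variance prior, library weights, a replicate block and leaving out each library; leaving out replicate 1 of both ages was chosen after seeing the data. Gene positions are from GENCODE M21 and promoters from RefSeq, both on GRCm38. Figures used matplotlib 3.10.9.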

Additional observations from a re-analysis of the deposited data

Results flagged for a closer look

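A sample far from the others of its age was found in 2 of 48 groups of 4 libraries examined (24 genes at 2 ages), where chance gives about 1 in 20. Ndufs1 stood at 23.3 FPKM in PND1 replicate 2 and at 16.5 to 17.5 FPKM in the other PND1 libraries. Ndufs7 stood at 52.7 FPKM in PND1 replicate 4 and at 42.7 to 43.7 FPKM in the other PND1 libraries.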

How the results depend on the processing

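No member passed the adjusted test in any of 19 alternatives (smallest adjusted p 0.26). The count of all genes past the test was 2 with array weights and 0 to 1 with 1 library left out. It was 0 without any 1 of the PND1 libraries and without replicate 1 of both ages. In those settings Gm16272, at 0 in every PND4 library, no longer had 4 libraries at 1 FPKM. The filter then removed it before the test, so these counts of 0 do not bear on its difference. The members' median was between 0.033 and 0.13 with 1 library left out. Members at an unadjusted p under 0.05 numbered 2 (without PND1 replicate 2) to 5. Of 24 named members, 13 kept their sign throughout. Signs turned with median-of-ratios and upper-quartile scaling for Ndufa4 (-0.039, -0.043), Ndufaf5 (-0.056, -0.053) and Ndufb9 (-0.014, -0.019), with array weights for Ndufaf1 (0.019), Ndufaf6 (0.30) and Ndufaf8 (-0.33), with a pseudocount of 0.1 for Ndufaf5 (-0.077) and of 5 for Ndufaf6 (0.066). Without replicate 1 of both ages they turned for Ndufaf1 (0.21), Ndufaf6 (0.56) and Ndufaf8 (-0.65). The cause was not tested. With 1 library left out, differences ran from -0.16 to 0.23 (Ndufa4), -0.66 to 0.25 (Ndufaf1), -0.0014 to 0.89 (Ndufaf3), -0.36 to 0.13 (Ndufaf4), -0.21 to 0.47 (Ndufaf5), -0.60 to 0.60 (Ndufaf6), -0.14 to 0.55 (Ndufaf7), -0.48 to 0.52 (Ndufaf8), -0.0006 to 0.33 (Ndufb2), -0.0081 to 0.14 (Ndufb9) and -0.048 to 0.18 (Ndufc2). Libraries with the same replicate number correlated at -0.0088 to 0.12 in their deviations from the age means, so the numbers were not taken as pairs. The replicate block gave 1 gene past the test over all genes, 0 members and a members' median of 0.055.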

Other observations

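Regulators of nuclear respiratory genes and of mitochondrial transcription were measured alongside. Of 13 on the list, 11 were in the table and 10 were tested, with a median log2 difference of 0.22. Differences were above 0 for 7 of the 10 (60.3% of all tested genes). With median-of-ratios or upper-quartile scaling this held for 6 (51.2% and 50.6% of all tested genes). Of the 10, 0 had an unadjusted p under 0.05 (5.9% of all tested genes) and 0 passed adjustment (limma). Gabpa, for the ETS factor that binds many respiratory promoters, stood at 10.5, 21.5, 20.3 and 19.0 FPKM at PND1 and at 7.67, 22.2, 17.6 and 22.4 FPKM at PND4. It was lowest in replicate 1 of each age. Yy1 stood at 14.6 ± 1.66 and 14.8 ± 2.17 FPKM (SD, n = 4). Nrf1, for the factor whose motif was searched above, stood at 4.31 ± 1.06 and 4.29 ± 1.03 FPKM, and Tfam, for the factor that packages and transcribes mitochondrial DNA, at 7.64 to 10.9 FPKM at PND1 and 9.01 to 12.5 FPKM at PND4. Both were named after their values were seen. Polrmt, the mitochondrial RNA polymerase gene, was listed at 0 in 3 of 8 libraries and was not tested.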
